A study of Mus musculus with 6 samples.

Results

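The proteasome genes of the mouse were examined in the prefrontal cortex of Pla2g4e knockout and wild-type mice. Members were all genes whose symbol starts with Psma, Psmb, Psmc, Psmd, Psme, Psmf or Psmg and goes on with a number and at most 1 further letter. This rule found 49 of the 56923 genes in the count tables, on 16 chromosomes, without using any expression value. Of these, 47 had enough fragments to be tested. KO denotes 3 libraries from mice that lack functional Pla2g4e constitutively (C57BL/6N-A tm1Brd Pla2g4e tm2a, an EUCOMM allele that splices into a LacZ gene trap), and WT denotes 3 libraries labelled as wild type. Pla2g4e encodes a calcium-dependent phospholipase A2 that acts as an N-acyltransferase. The allele is present in every cell throughout life. The labels give neither age, sex nor litter, and the study used both sexes.

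The proteasome is the protease that breaks down ubiquitin-tagged proteins. Its barrel-shaped 20S core is built of alpha rings and beta rings, with the active sites on the inside of the beta rings, and the 19S regulatory particle that caps it binds ubiquitin chains, removes them and threads the substrate inward with a ring of ATPases. Neurons use it to turn over synaptic proteins, and an interferon-induced form, the immunoproteasome, makes peptides for antigen presentation. In the following, standard subunits are the 31 genes of the alpha ring (7), the beta ring (7), the 19S ATPases (6) and the 19S non-ATPase subunits (11). The other members are 3 immunoproteasome subunits, 5 activators and inhibitors, 7 assembly chaperones and 3 genes that are restricted to another tissue or are a retrogene.

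Library totals ranged from 11792463 to 14594230 fragments, and the members took 0.243% to 0.274% of them. Pla2g4e itself had 88, 97 and 102 fragments in the KO libraries. It had 100, 138 and 168 fragments in the libraries labelled WT replicates 1 to 3. Its log2 fold change was -0.55 ± 0.21 (SE), with 0.0205 as the unadjusted and 0.635 as the adjusted limma-voom p-value, and the groups overlapped. At 7.84 CPM (counts per 1e6 counted fragments, after scaling), WT replicate 1 lay inside the KO range of 5.95 to 8.12 CPM. By this level alone it cannot be told from the KO libraries, and it is called the library labelled WT replicate 1 from here on. Counts cover all exons of the gene, and the gene trap was not counted apart. Of 4 Y-linked genes, 0 fragments were found in KO replicate 1 and 2 in the library labelled WT replicate 1, against 2221 to 2383 in the remaining 4 libraries. No member lay within 29.1 Mb of Pla2g4e on chromosome 2, where 6 members are located. The labels do not say that replicates are separate animals, so p-values measure the spread between these libraries.

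Proteasome transcripts were abundant in this tissue, and 43 of the 49 members had a mean of over 10 TPM, a unit that corrects for exon length and is used here to compare genes. It divides by the summed length of all exons of a gene. Ranks and ratios between genes can therefore differ on the length of a single annotated transcript. Across the 31 standard subunits the mean level ran from 33.9 TPM for Psmd11 to 365 TPM for Psmc5, a 10.8-fold range with a median of 87.1 TPM. Psmc5, an ATPase of the 19S ring, stood apart from the rest, with 336 to 407 TPM over the 6 libraries against 163 to 209 TPM for the next ATPases, Psmc1 and Psmc3. Psmc1 and Psmc3, at means of 187 and 181 TPM, had overlapping ranges. By summed exon length Psmc2 was the lowest ATPase, at 52.3 TPM.

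Among the alpha subunits, which form the outer rings and the gate of the core, Psma6 was highest at 160.1 TPM and Psma3 lowest at 57.9 TPM. On transcript length Psma7 would stand above Psma6. Psma7 has 3071 summed exon bases and a transcript of 1157, against 1234 and 1042 for Psma6. In the beta ring the range went from 144 TPM for Psmb6, which carries the caspase-like site, to 39.3 TPM for Psmb3, a structural subunit. Psmb3 has 2300 summed exon bases but a transcript of 766. On transcript length Psmb5, with 899 bases by either length, would be the lowest of this ring. Psmd2, the scaffold subunit on which ubiquitin shuttles dock, was the highest non-ATPase subunit at 146 TPM. Psmd11, which clamps the 19S particle to the core, was the lowest. Assembly chaperones, which help to build the particle and then leave it, had lower levels than the lowest standard subunit, from 28.6 TPM for Psmd10 to 7.20 TPM for Psmg3. Psmd9, with 7248 summed exon bases but a transcript of 2597, would stand above Psmd10, with 1469 and 1430, on transcript length. Among activators and inhibitors the nuclear activator Psme3 reached 127 TPM and the inhibitor Psmf1 17.7 TPM.

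**Figure D1:**
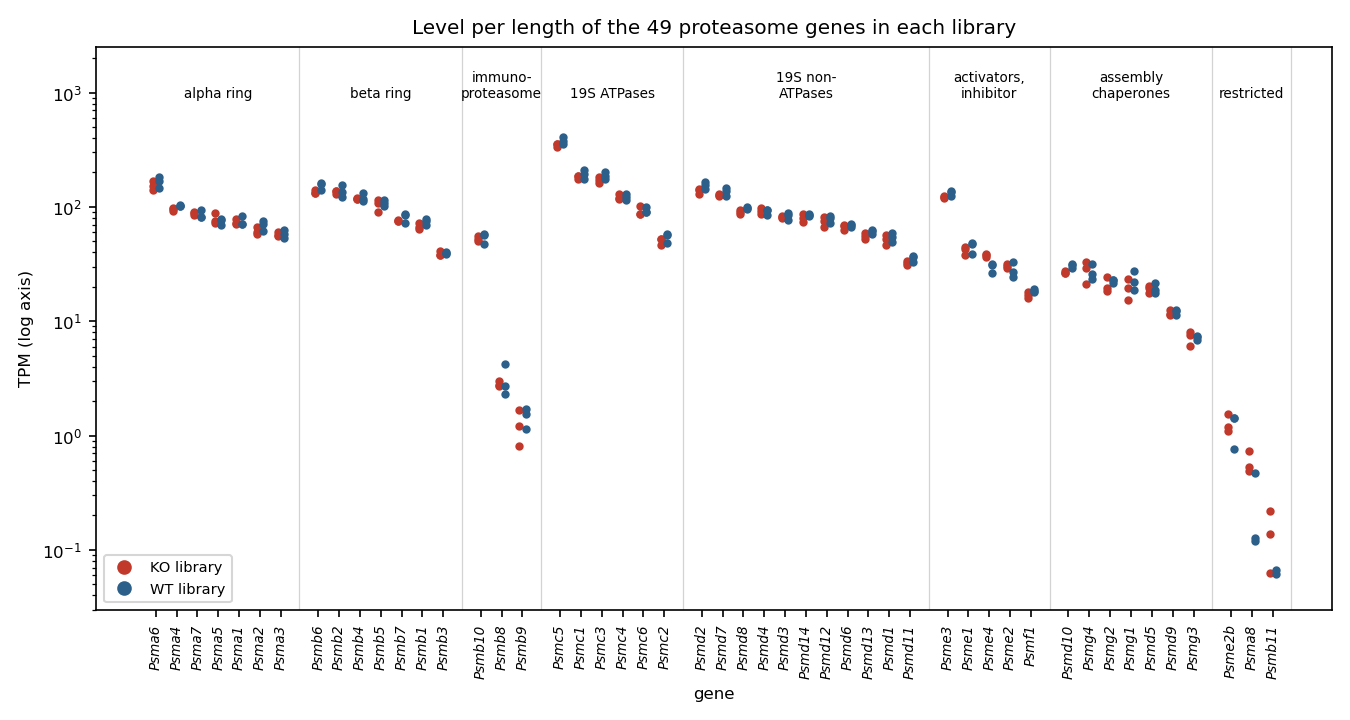
Level per exon length (TPM, log axis) of the 49 proteasome genes, ordered within each class by the mean over 6 libraries, with 1 point per library (red, KO; blue, labelled WT). Psmc5 stands highest at a mean of 365 TPM, and Psmb8, Psmb9 and the 3 restricted genes lie at 4.20 TPM or lower in every library. Psmb11 had 0 fragments in the library labelled WT replicate 3, which a log axis cannot show.

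Of the genes tested in KO against WT, none passed the adjusted threshold of 0.05 in limma-voom, members included. That is 0 of 19084 genes (0%), with 0 genes in the edgeR quasi-likelihood test and 1 gene, not a member, in DESeq2. At an unadjusted p-value under 0.05, limma-voom gave 1492 genes (7.82% of those tested), 657 of them lower in KO (3.44%) and 835 higher in KO (4.38%). Among the 47 members tested, 11 had an unadjusted p-value under 0.05, 10 lower in KO and 1 higher, Psme4. Their adjusted p-values, by limma-voom, were 0.635 to 0.636. Genes of matched level gave higher shares. Of the 6014 genes within the range of mean log2 CPM of the standard subunits, 10.1% had an unadjusted p-value under 0.05, and 4.97% had one and were lower in KO.

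Proteasome transcripts lay slightly lower in KO across most classes, though no single gene passed the adjusted test. The log2 fold change was below 0 for 41 of the 47 members, against 48.1% of all genes tested and 54.8% of the genes of matched level. The exceptions were Psma5, Psma7, Psma8, Psmd4, Psme2 and Psme4, of which Psmd4, the nearest to 0, was lower in 7 of 17 settings tried. With RLE factors 42 members were lower, and with library totals alone 39. The median log2 fold change of the members was -0.11, a difference of -7.09%, against 0.01 over all genes tested and -0.02 over the genes of matched level. For 13 members every KO library was below every library labelled WT, and for 1 it was above. The share of all genes tested whose groups did not overlap was 13% in either direction, with 6.29% lower and 6.72% higher in KO. In the genes of matched level, 8.91% did not overlap and were lower. Since this is bulk tissue, fewer cells of a type and less RNA per cell cannot be told apart.

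These counts depended on single libraries. Without the library labelled WT replicate 1, 35 of 47 members were lower, the median was -0.06, and only Psme4 kept an unadjusted p-value under 0.05, against 5.38% of all genes tested in that fit. The number of members with such a p-value, 11 in all 6 libraries, was 3, 7 and 3 without KO replicates 1, 2 and 3, where 4.44%, 7.43% and 8.05% of all genes had one. It was 3 without WT replicate 2, against 4.13% of all genes, and 15 without WT replicate 3, against 2239 of 18931 genes. Within the 4 libraries that had Y-linked transcripts, 31 of 46 members were lower, against 49.5% of all genes. There, 2 of the members reached an unadjusted p-value under 0.05, a share near the 3.77% of all genes. With a covariate for Y-linked expression, 41 of 47 members were lower, against 48.4% of all genes. In that fit 11 members had an unadjusted limma-voom p-value under 0.05, against 10.6% of all genes. Leaving out KO replicate 1 or the library labelled WT replicate 1 left libraries without Y-linked transcripts in 1 group only.

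**Figure D2:**
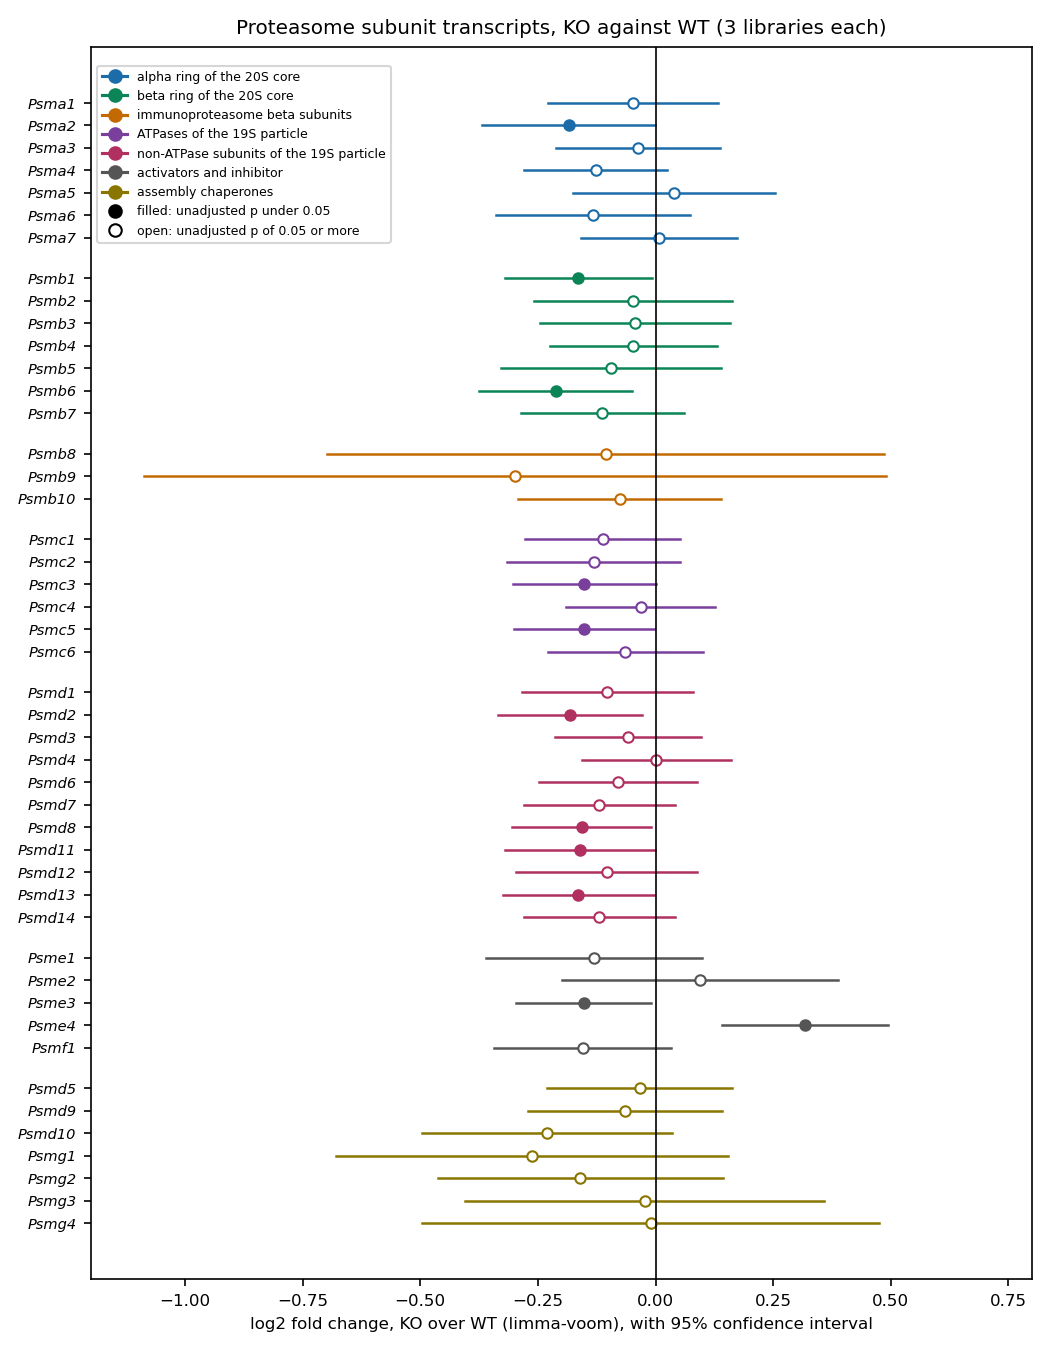
Log2 fold change of 46 tested members, KO over WT, by limma-voom (point) with its 95% confidence interval (line), coloured by class, with filled points for an unadjusted p-value under 0.05. Most points lie between -0.30 and 0, Psme4 alone has its interval above 0, and Psma8, whose interval runs from -0.25 to 2.76, is left out for scale.

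The libraries show where the difference sits. For each of the 31 standard subunits, log2 CPM in a library was set against its mean over the 6 libraries. The median of these deviations was -0.06, -0.05 and -0.05 in the KO libraries, in which 7, 10 and 4 of 31 subunits lay above their mean. In the library labelled WT replicate 1 the median was 0.14 and 30 of 31 subunits lay above their mean. WT replicate 2 followed with 0.04 and 24 subunits. WT replicate 3 had -0.01 and 8 subunits, so it lay closer to the KO libraries than to the library labelled WT replicate 1. For 24 of 31 standard subunits the highest of all 6 values was that of the library labelled WT replicate 1. Over all genes tested the median deviation stayed within -0.01 to 0.01 in every library. Over the genes of matched level it ran from -0.01 in KO replicate 1 to 0.02 in WT replicate 2, with 0.01 in the library labelled WT replicate 1. The 3 libraries labelled WT therefore spread over a wider range than the KO libraries. The direction for the whole group is drawn in part from the library labelled WT replicate 1, with Pla2g4e inside the KO range. KO replicate 1, which also lacked Y-linked transcripts, had a median of -0.06 against 0.14 in that library.

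**Figure D3:**
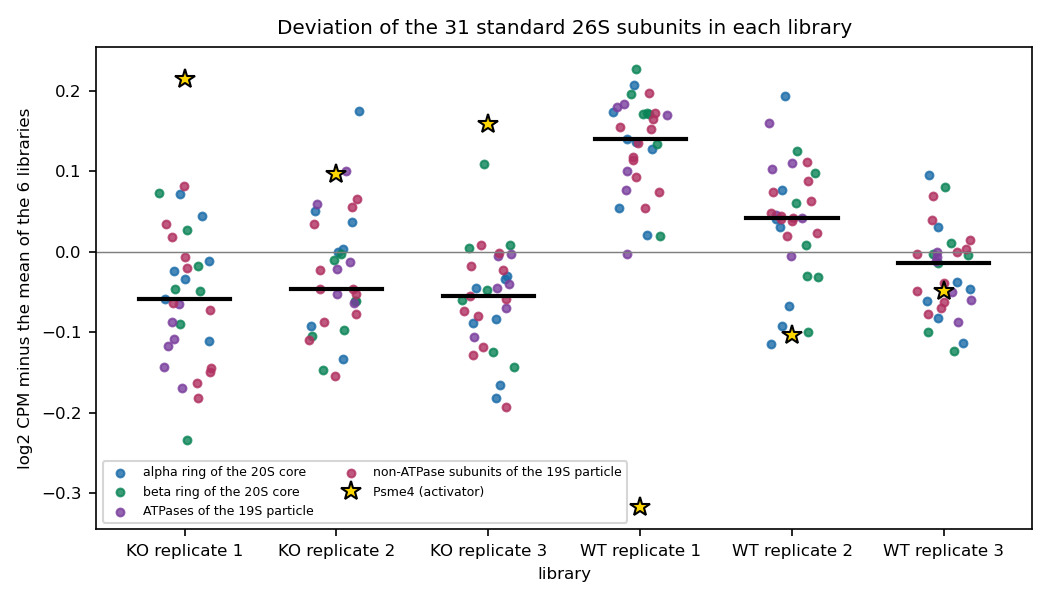
Deviation of each standard 26S subunit (points, coloured by class) from its 6-library mean on the log2 CPM scale, by library, with the median as a bar and Psme4 as a star. The bars lie at -0.06, -0.05 and -0.05 for KO and at 0.14, 0.04 and -0.01 for the libraries labelled WT replicates 1 to 3, and the star lies above 0 in every KO library and below 0 in every library labelled WT.

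Psme4, the activator also called PA200, had the lowest p-value of all members and was higher in KO. It encodes a large nuclear protein that caps the core in place of the 19S particle and is known for the breakdown of acetylated histones. The gene (ENSMUSG00000040850.18) spans chr11:30721726-30830361 on the plus strand in GRCm39. Its level was 84.4, 77.7 and 81.1 CPM in KO replicates 1 to 3. It was 58.2, 67.5 and 70.2 CPM in the libraries labelled WT replicates 1 to 3. All KO libraries lay above all libraries labelled WT, and the widest gap was to the library labelled WT replicate 1. The log2 fold change was 0.32 ± 0.08 (SE), a difference of 24.6%, and limma-voom gave 0.00207 as the unadjusted and 0.635 as the adjusted p-value. Psme4 had an unadjusted p-value under 0.05 in all 17 settings tried, with log2 fold changes of 0.21 to 0.37 and adjusted p-values of 0.212 to 0.999. Without the library labelled WT replicate 1 its log2 fold change was 0.24, with an unadjusted limma-voom p-value of 0.0100.

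Psme3, the other nuclear activator, went the opposite way. It encodes the gamma form of the 11S cap, which opens the core without ATP or ubiquitin. The gene (ENSMUSG00000078652.10) spans chr11:101207039-101214363 on the plus strand in GRCm39. Its level was 91.8, 90.5 and 93.6 CPM in KO against 106, 103 and 97.4 CPM in the libraries labelled WT replicates 1 to 3. The groups did not overlap, and the KO libraries were closer to each other than the libraries labelled WT. The log2 fold change was -0.15 ± 0.07 (SE), for which limma-voom gave 0.0375 as the unadjusted and 0.635 as the adjusted p-value. Set against each other within a library, Psme4 was at 32.3%, 30.2% and 30.5% of the TPM of Psme3 in KO and at 19.2%, 23.0% and 25.3% in the libraries labelled WT. Since each of the genes separates the groups on its own, in opposite directions, the ratio had to separate them too.

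Of the other activators, Psme1 and Psme2 encode the alpha and beta chains of the interferon-induced 11S cap and lie close to each other on chromosome 14. Psme1 was at 23.6 ± 1.75 CPM in the KO libraries and 25.9 ± 2.698 CPM in WT (SD, n = 3), and Psme2 at 13.7 ± 0.734 and 12.96 ± 2.18 CPM. Both overlapped between the groups. The inhibitor Psmf1 was at 30.0, 27.6 and 26.4 CPM in KO against 31.04, 32.0 and 30.7 CPM in the libraries labelled WT, without overlap, and its limma-voom log2 fold change was -0.16 ± 0.09 with an unadjusted p-value of 0.0959.

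Psme2 shares most of its sequence with Psme2b, a single-exon retrogene on chromosome 11. In the GENCODE M21 transcripts (GRCm38) their coding sequences, each of 717 bases, differed at 5 positions and were 99.3% identical. Of the 75-base stretches of the Psme2 transcript, 51.7% occur in Psme2b as well. Fragments that fit both genes equally well were not counted, which lowers both counts. Psme2b had 3 to 5 fragments in the KO libraries and 2 to 4 in the libraries labelled WT, and was not tested. The stretch from coding base 484 to 543 is shown for both because it holds 3 of the differences, in capitals, by which a fragment can be assigned.
Psme2: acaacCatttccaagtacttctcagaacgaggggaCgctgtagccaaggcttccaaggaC
Psme2b: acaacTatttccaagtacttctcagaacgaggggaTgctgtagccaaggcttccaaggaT

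In the beta ring, all 7 standard subunits were lower in KO, with a median log2 fold change of -0.10. Psmb6 had the lowest p-value among the standard subunits. It encodes the beta 1 subunit with the caspase-like site and spans chr11:70416193-70418684 in GRCm39 (ENSMUSG00000018286.7). Its level was 67.5, 62.9 and 63.9 CPM in KO against 80.0, 76.1 and 69.5 CPM in the libraries labelled WT replicates 1 to 3. Every KO library lay below every library labelled WT. The log2 fold change was -0.21 ± 0.07 (SE), the unadjusted limma-voom p-value was 0.0149, and it was under 0.05 in 16 of 17 settings. Psmb1, a structural subunit, was at 79.4, 83.9 and 76.5 CPM against 95.2, 88.2 and 85.2 CPM. Its log2 fold change was -0.16 ± 0.07, with an unadjusted p-value of 0.0409 (limma-voom) and no overlap.

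The other catalytic subunits showed smaller differences. Psmb7, with the trypsin-like site, was at 67.3, 66.7 and 66.7 CPM in the KO libraries and at 78.4, 74.5 and 64.9 CPM in the libraries labelled WT. WT replicate 3 lay below all KO libraries, so the groups overlapped, and the log2 fold change ran from -0.06 without the library labelled WT replicate 1 to -0.20 without WT replicate 3. Psmb5, with the chymotrypsin-like site, was at 20.9, 24.6 and 26.6 CPM in the KO libraries and at 27.1, 24.8 and 24.4 CPM in the libraries labelled WT, with a log2 fold change of -0.10 ± 0.11 which turned to 0.01 without KO replicate 1. Psmb2, Psmb3 and Psmb4, which have no active site, had log2 fold changes of -0.05, -0.04 and -0.05.

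The immunoproteasome subunits replace these catalytic subunits after interferon exposure and are typical of immune cells. Psmb8, the counterpart of Psmb5, was at 2.64, 2.35 and 2.34 CPM in the KO libraries and at 2.04, 2.37 and 3.77 CPM in the libraries labelled WT. Psmb9, the counterpart of Psmb6, was at 1.15, 0.754 and 1.56 CPM in the KO libraries and at 1.49, 1.06 and 1.65 CPM in the libraries labelled WT. Neither separated the groups. Psmb10, the counterpart of Psmb7, stood higher, at 22.0, 23.8 and 22.9 CPM in the KO libraries and 25.8, 25.1 and 21.6 CPM in the libraries labelled WT. The limma-voom log2 fold changes were -0.11 ± 0.27 for Psmb8, -0.30 ± 0.36 for Psmb9 and -0.08 ± 0.10 for Psmb10, and all 3 intervals included 0. For Psmb8 the value turned to 0.15 without WT replicate 3. With 1 library left out it ranged from -0.52 (without KO replicate 3) to -0.07 (without KO replicate 2) for Psmb9, and from -0.16 (without WT replicate 3) to -0.03 (without the library labelled WT replicate 1) for Psmb10.

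Relative to its constitutive counterpart on the TPM scale, Psmb8 was at 2.74% ± 0.540 of Psmb5 in KO and 2.88% ± 1.09 in WT (SD, n = 3, exact permutation p = 0.8). The summed exons of Psmb8 measure 3381 bases but its transcript 1628, so on transcript length this share would be higher. Psmb5 has 899 bases by either length, and 40.0% of its 75-base stretches occur in other genes, which lowers its count. Psmb9 was at 0.911% ± 0.321 of Psmb6 in KO and 0.960% ± 0.249 in WT (n = 3, exact permutation p = 0.8). Psmb10 was at 68.7% ± 2.93 of Psmb7 in KO and 66.8% ± 0.842 in WT (n = 3, exact permutation p = 0.4). Summed exons measure 1705 bases for Psmb10 and 3421 for Psmb7, but their transcripts measure 1311 and 1160. On transcript length this last share would be lower. The lengths are the same for every library, so the comparison between the groups does not depend on them. These ratios overlapped between the groups in all 3 pairs, and with 3 libraries a group the two-sided test cannot go below 0.1. The coding sequences of the pairs were 65.9% identical for Psmb5 and Psmb8, 65.9% for Psmb6 and Psmb9 and 60.9% for Psmb7 and Psmb10, so these genes can be told apart by the counting.

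**Figure D4:**
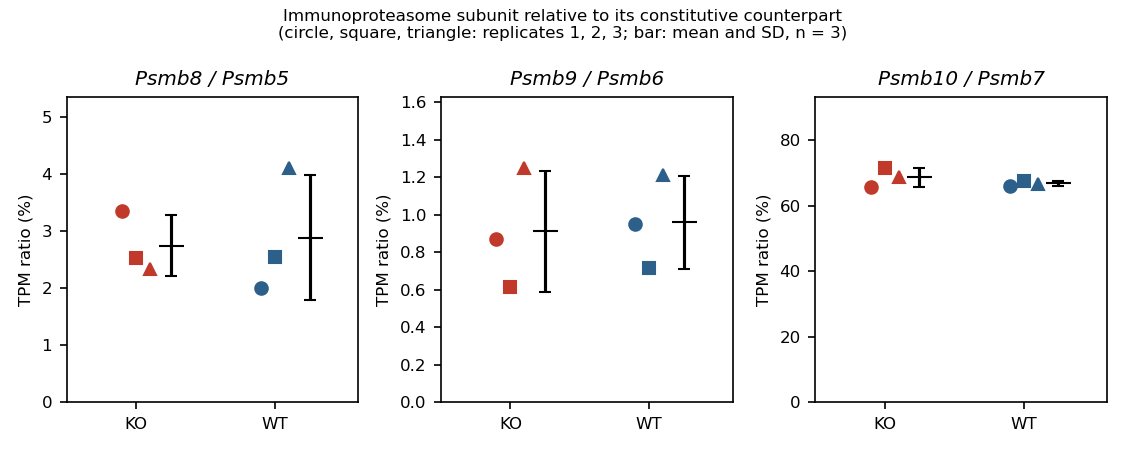
TPM of each immunoproteasome subunit as a percentage of its constitutive counterpart, by library (circle, square and triangle for replicates 1 to 3; black, mean and SD of 3 libraries), for KO (red) and the libraries labelled WT (blue). The groups overlap in all 3 panels, with means of 2.74% and 2.88%, 0.911% and 0.960%, and 68.7% and 66.8%.

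Markers of immune cells were summed beside these subunits. The 10 microglia markers, which include Cx3cr1, P2ry12 and Tmem119 and none of which was at 0, summed to 401 to 432 CPM in the KO libraries and 376 to 473 CPM in the libraries labelled WT. One of them, Aif1, was lower in KO without overlap (log2 fold change -0.47 ± 0.18, unadjusted limma-voom p-value 0.0265). It alone of the 10 had such a p-value under 0.05, against 7.82% of all genes tested. The 7 lymphocyte markers summed to 5.31 to 7.10 and 4.86 to 7.85 CPM. Of 15 genes of antigen presentation and the interferon response, 11 were higher in KO with a median log2 fold change of 0.09, and none had an unadjusted p-value under 0.05 in limma-voom, edgeR or DESeq2.

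In the alpha ring, 5 of 7 subunits were lower in KO, with a median log2 fold change of -0.05. Psma2 was at 57.5, 62.2 and 55.3 CPM in the KO libraries and at 68.5, 71.1 and 59.5 CPM in the libraries labelled WT. WT replicate 3 lay below KO replicate 2, so the groups overlapped although the limma-voom p-value was under 0.05 (log2 fold change -0.18 ± 0.08, unadjusted p = 0.0492). Psma4 was at 60.3, 55.4 and 58.9 CPM against 63.2, 62.5 and 65.0 CPM, with no overlap, a log2 fold change of -0.13 ± 0.07 and an unadjusted limma-voom p-value of 0.0936. Psma5 and Psma7, at 0.04 ± 0.10 and 0.01 ± 0.08, had the only log2 fold changes above 0 in this ring.

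The ATPases of the 19S particle, which unfold the substrate, were lower in KO for all 6 genes, with a median log2 fold change of -0.12. Psmc5 was at 122, 126 and 128 CPM in the KO libraries and at 149, 136 and 132 CPM in the libraries labelled WT. Psmc3 was at 110.3, 121 and 116 CPM in the KO libraries and at 129, 136 and 121 CPM in the libraries labelled WT. Both separated the groups, but for Psmc3 KO replicate 2 and WT replicate 3 nearly met, at 120.8 and 120.9 CPM. Their log2 fold changes were -0.15 ± 0.07 each, with unadjusted limma-voom p-values of 0.0461 for Psmc5 and 0.04999 for Psmc3. Without the library labelled WT replicate 1 the value for Psmc5 was -0.10 (limma-voom p-value 0.178), and within the 4 libraries with Y-linked transcripts it was -0.08. Psmc1, Psmc2, Psmc4 and Psmc6 had log2 fold changes between -0.13 and -0.03 with intervals that included 0.

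Of the 11 non-ATPase subunits, 10 were lower in KO, with a median log2 fold change of -0.12. Psmd2 (ENSMUSG00000006998.17, chr16:20470402-20482164 in GRCm39) was at 136, 147 and 147 CPM in KO against 175, 161 and 153 CPM in the libraries labelled WT. The groups did not overlap, and the library labelled WT replicate 1 was the highest. The log2 fold change was -0.18 ± 0.07, with an unadjusted p-value of 0.0242 by limma-voom that was under 0.05 in 14 of 17 settings. Psmd4, one of the ubiquitin receptors, was at 66.4 ± 3.42 CPM in the KO libraries and 66.4 ± 3.12 CPM in WT (SD, n = 3), and the 95% interval of its log2 fold change ran from -0.16 to 0.16. Psmd1, Psmd3, Psmd6, Psmd7 and Psmd12 had log2 fold changes between -0.12 and -0.06 with intervals that included 0.

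Of the 11 non-ATPase subunits, 5 were lower in KO without overlap, against 6.29% of all genes tested and 8.91% of the genes of matched level. They were Psmd2 and, from the lid, the outer part of the 19S particle, Psmd8, Psmd11, Psmd13 and Psmd14. The lid subunits Psmd3, Psmd6, Psmd7 and Psmd12 overlapped between the groups. Psmd8 was at 74.3, 69.2 and 68.8 CPM in KO against 81.1, 77.3 and 78.4 CPM in the libraries labelled WT, without overlap (log2 fold change -0.16 ± 0.07, unadjusted limma-voom p-value 0.0395). Psmd13 was at 45.9, 50.0 and 48.3 CPM against 55.0, 54.9 and 51.3 CPM (-0.16 ± 0.07, limma-voom p-value 0.0465). Psmd11 was at 53.6, 54.3 and 51.2 CPM against 62.4, 59.6 and 56.0 CPM (-0.16 ± 0.07, limma-voom p-value 0.0491). In all 3 genes the KO libraries lay below the libraries labelled WT. Psmd14, the deubiquitinase of the particle, was at 54.0, 61.4 and 57.6 CPM against 64.0, 61.7 and 61.6 CPM, with no overlap and a limma-voom p-value of 0.130. Of the 10 members lower in KO with an unadjusted p-value under 0.05, 6 had one between 0.04 and 0.05. Apart from Psmb6 and Psmd2, the members of this group had a p-value under 0.05 in 6 to 9 of the 17 settings, with the fewest for Psmd13 and the most for Psma2 and Psmb1.

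**Figure D5:**
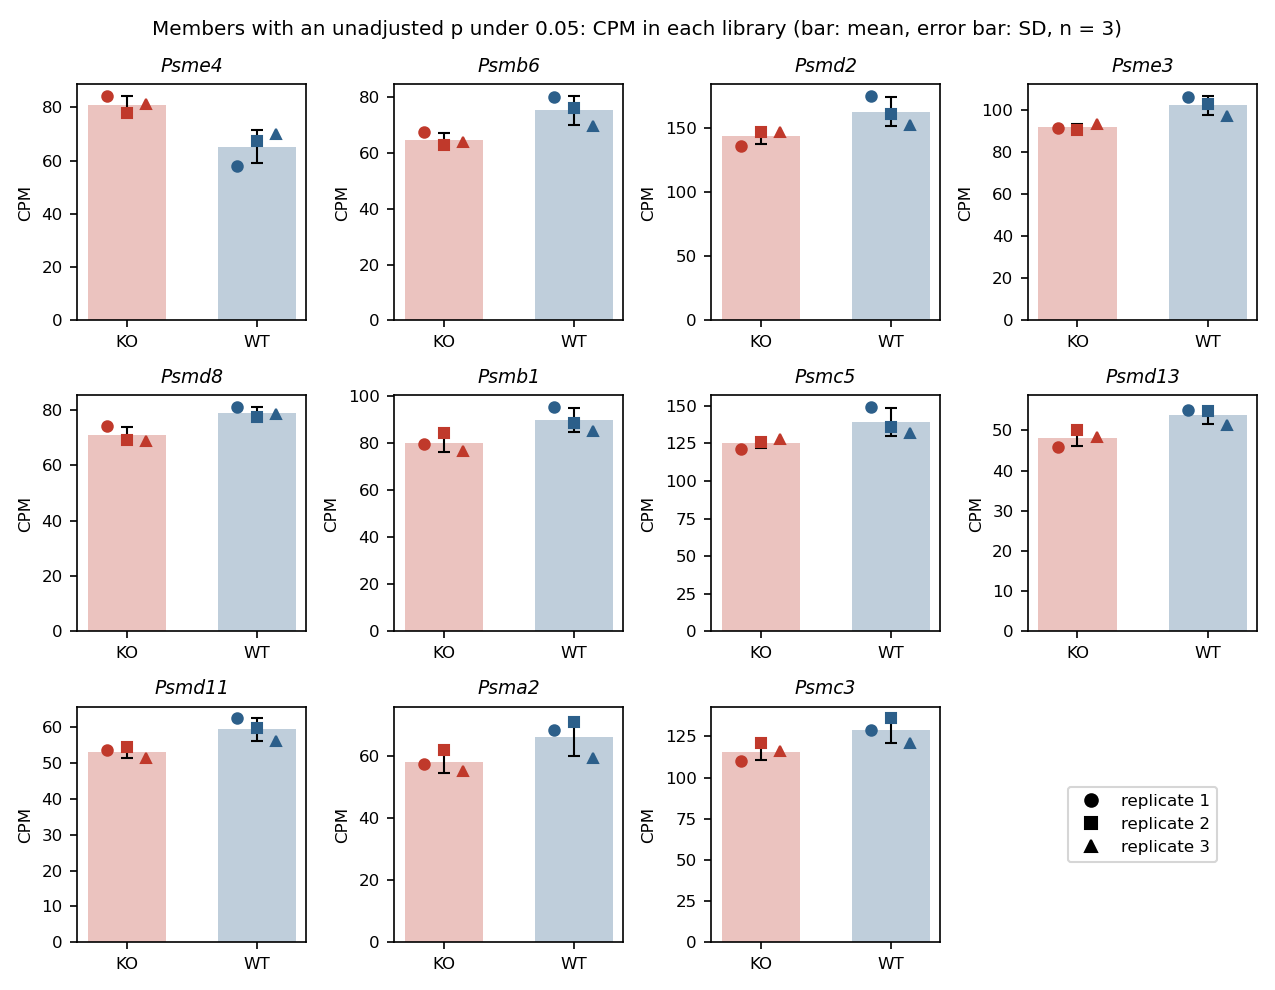
CPM in each library (circle, square and triangle for replicates 1 to 3) of the 11 members with an unadjusted p-value under 0.05, with the mean as a bar and the SD of 3 libraries as an error bar. Psme4 is higher in KO (77.7 to 84.4 CPM against 58.2 to 70.2 CPM), the other 10 have lower KO means, and in Psma2 the groups overlap.

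The standard subunits had 261 to 2234 fragments per library and standard errors of 0.07 to 0.11 on the log2 scale. For 22 of the 31 the 95% confidence interval included 0. Taken over all 31, the intervals ran from -0.38 (-22.9%), the lower limit of Psmb6, to 0.25 (19.2%), the upper limit of Psma5. No single subunit spanned that range, since the widest interval measured 0.47 on the log2 scale.

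The assembly chaperones were lower in KO for all 7 genes, or for all but Psmg3 and Psmg4 with library totals alone, with a median log2 fold change of -0.06 and no unadjusted p-value under 0.05 in limma-voom or any alternative run. Psmd10, also known as gankyrin, a chaperone of the ATPase ring, lay between 9.80 and 10.3 CPM in the KO libraries and between 10.97 and 12.3 CPM in the libraries labelled WT. The groups did not overlap, with a log2 fold change of -0.23 ± 0.12 and an unadjusted limma-voom p-value of 0.0825. Psmg1 to Psmg4, which pair up the alpha subunits, had log2 fold changes of -0.26 ± 0.19, -0.16 ± 0.14, -0.02 ± 0.18 and -0.01 ± 0.22. Psmd5 and Psmd9, the other chaperones of the ATPase ring, had -0.03 ± 0.09 and -0.06 ± 0.09.

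The 3 restricted genes had few fragments. Psma8, an alpha subunit of the testis, had 7, 4 and 4 fragments in the KO libraries and 1, 1 and 4 in the libraries labelled WT, and passed the minimum of 6 fragments only through KO replicate 1. Its limma-voom log2 fold change of 1.25 ± 0.69 is therefore no support for a difference, since KO had to be high for it to be tested. Psmb11, the thymus subunit, had 4, 2 and 1 fragments in the KO libraries and 1, 1 and 0 in the libraries labelled WT, and was not tested.

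Genes that work with the proteasome but are not members were mostly lower in KO as well. The list of partners holds assembly factors, ubiquitin receptors, shuttles, deubiquitinases, ubiquitin genes and the transcription factors of the Nfe2l family. It also holds Uba1, Uba6, Vcp, Nploc4, Ufd1, Ube3c, Ecpas, Txnl1, Zfand5, Akirin2, Ipo9, Ddi2 and Ngly1. Of these 31 partners, 30 were matched in the tables. The log2 fold change was below 0 for 25 of them, against 48.1% of all genes tested, with a median of -0.08 (-0.13 without WT replicate 3). Unlike for the standard subunits, the highest library was most often WT replicate 2, for 13 partners, and the library labelled WT replicate 1 for 10. In limma-voom 5 partners had an unadjusted p-value under 0.05, all lower in KO, against 3.44% of all genes tested. Txnl1, a thioredoxin bound to the 19S particle, was at 58.7, 65.6 and 64.1 CPM in the KO libraries and at 78.5, 75.3 and 70.7 CPM in the libraries labelled WT (log2 fold change -0.26 ± 0.07, limma-voom p-value 0.00501). Rad23b, a shuttle for tagged proteins, had a log2 fold change of -0.19 ± 0.07 (limma-voom p-value 0.0229). Usp14, a deubiquitinase of the 19S particle, had -0.18 ± 0.08 (p-value 0.0438, and -0.10 without KO replicate 1), and the ubiquitin gene Ubb -0.15 ± 0.07 (p-value 0.0475), both by limma-voom. Nfe2l3 had -0.69 ± 0.29 (limma-voom p-value 0.0314) at 1.62 to 4.87 CPM, and without KO replicate 1 it had -0.36 with a limma-voom p-value of 0.2002. The p-value of Nfe2l3 was 0.0570 without WT replicate 2 and 0.115 without WT replicate 3, 0.0725 within the 4 libraries with Y-linked transcripts, all by limma-voom, and 0.0561 in DESeq2. Nfe2l1, which drives proteasome genes when the protease is inhibited, was at 323 ± 25.9 CPM in the KO libraries and 352 ± 16.8 CPM in WT (SD, n = 3), with a limma-voom p-value of 0.0992. Without the library labelled WT replicate 1 the number of partners with a p-value under 0.05 was 2, against 5.38% of all genes tested. It was 2 and 3 without KO replicates 1 and 3, against 4.44% and 8.05% of all genes. Without WT replicate 2 it was 1, against 4.13% of all genes, and without WT replicate 3 it was 9, against 2239 of 18931 genes.

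Cell type markers moved in part with these libraries. The 10 neuron markers, none of them at 0, summed to 11766 to 12744 CPM in the KO libraries and 12409 to 13362 CPM in the libraries labelled WT. Of the 10, 7 were lower in KO, against 48.1% of all genes tested, with a median log2 fold change of -0.06. Among the 7, Rbfox3 (-0.01) and Camk2a (-0.0008) were near 0. Map2, Gad1 and Gad2 were higher in KO, at 0.01, 0.33 and 0.10. The median deviation of the 10 from the 6-library mean was -0.14, -0.03 and -0.01 in KO. It was 0.04, 0.13 and -0.02 in the libraries labelled WT replicates 1 to 3. The highest library for neuron markers was thus WT replicate 2, not the library labelled WT replicate 1. The 8 oligodendrocyte, the 8 astrocyte and the 8 striatum markers were all higher in KO by log2 fold change, but the summed levels of each list overlapped between the groups, at 2233 to 2594 against 1735 to 2871 CPM, 4781 to 5287 against 4511 to 5253 CPM and 227 to 331 against 165 to 297 CPM. In these lists the only genes with an unadjusted limma-voom p-value under 0.05 were the neuron marker Snap25 (log2 fold change -0.19, p-value 0.0351) and the striatum marker Penk (0.84, p-value 0.0217). Among all genes tested the share with such a p-value was 7.82%. The 5 choroid plexus markers summed to 34.5 CPM in WT replicate 2 and to 5.19 to 6.91 CPM in the other libraries. In WT replicate 2, Ttr alone made up 26.8 CPM of this sum, while Folr1 and Kcne2 had 1 fragment each. The part of tissue composition in the proteasome difference was not tested.

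The promoters of the members were compared with those of other genes because most members lay on the same side of 0. RefSeq promoter windows (GRCm38.p6, 250 bases before to 50 after the start) were found for 41 members, in 44 windows. Each window was searched on both strands for 5 patterns, none of which contains another. CCGGAAG, the core bound by ETS factors, was in 34.1% of the members' windows, against 8.86% of all 32851 windows and 14.4% of the windows of tested genes. The core of the interferon-stimulated response element, a pair of TTTC runs with 2 bases between them, was in 11.4% against 3.44% and 2.99%. It was found in Psmb3, Psmd4, Psmd9, Psme1 and Psmg4, and in no immunoproteasome subunit. TGACNNNGC, the antioxidant response core to which Nfe2l1 and Nfe2l2 bind, was in 13.6% against 12.4% and 14.01%. CCAAT was in 31.8% against 37.4% and 37.3%, and TATAAA in 9.09% against 13.6% and 7.93%. A match is a description of the sequence and not a site of binding.

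The ETS core was found in 14 members: Psma6, Psmc1, Psmc2, Psmc6, Psmd2, Psmd4, Psmd6, Psmd11, Psmd12, Psmd13, Psme3, Psme4, Psmg1 and Psmg3. Of these 14, 12 were lower in KO, with a median log2 fold change of -0.12. Of the 25 tested members whose windows lacked it, 22 were lower, with a median of -0.10. Of the 9 members with an unadjusted p-value under 0.05 and a promoter window, 5 held it, 4 of them lower in KO and the fifth Psme4, which was higher. The stretches around the match are shown for the activators of opposite direction and for Psmd2, read along the strand of the gene, with the match in capitals (CCGGAAG, or CTTCCGG where it lies on the other strand). They lie at chr11:30771706-30771744 for Psme4, chr11:101316090-101316128 for Psme3 and chr16:20651610-20651648 for Psmd2, all on the plus strand of GRCm38.p6, with the match shown starting 53, 107 and 26 bases before the start of the gene. Psme3 holds the core at 1 further place, on the other strand just after the start, which is not shown.
Psme4: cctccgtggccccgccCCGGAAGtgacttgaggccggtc
Psme3: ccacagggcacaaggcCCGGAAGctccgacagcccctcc
Psmd2: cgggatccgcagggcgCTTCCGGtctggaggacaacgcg

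Sequence shared with other genes limits how fully some members were counted. Of the 49 members, 20 share at least 1 stretch of 75 bases with another annotated gene, and 8 share 20% or more of their stretches. They are Psme2b (60.2%), Psme2 (51.7%), Psmb5 (40.0%), Psma5 (39.8%), Psmb3 (33.1%), Psmb7 (24.1%), Psma3 (21.3%) and Psmg3 (20.3%). Fragments that fit 2 places equally well were left out of the counts of all 6 libraries, which lowers the levels of such genes. The loss in each library was not measured. For Psmb7 the other gene is Nek6 on the opposite strand, which strand-specific counting keeps apart. Exons of 4 members overlap another gene on the same strand, among them Psmb5, of whose exon bases 12.1% are shared with Mir686. Psme4, Psmb6 and Psme3 share no stretch of that length.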

How the data were processed

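Strand-specific libraries of polyadenylated RNA were made from mouse prefrontal cortex, 3 labelled KO and 3 labelled WT. Groups and replicate numbers were taken from the sample titles. The deposited tables hold raw counts of fragments (read pairs) for each gene. FastQC 0.11.8 and STAR 2.7.9a are named in the submitters' processing notes. Per the file headers, the authors counted exonic fragments with featureCounts 1.6.0, paired-end and reverse-stranded, on GENCODE M31 (GRCm39), and no option was set to keep multi-mapping or multi-gene fragments. An earlier build is named in the study's methods, so coordinates of genes are those in the files. Symbols were matched by gene identifier to GENCODE M21 (52073 of 56923 genes), and members by symbol.

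Genes with at least 6 fragments in at least 1 library (19084) were scaled by TMM in edgeR 4.0.16 and compared by voom and limma 3.58.1 (R 4.3.3), two-sided, with Benjamini-Hochberg adjustment over all of them, after the methods of the study. CPM uses TMM-scaled totals, and TPM divides counts by the summed exon length of the gene. Ratios of immunoproteasome subunits to their counterparts within a library were compared by an exact permutation test. Alternatives were the edgeR quasi-likelihood test, DESeq2 1.42.0, other scaling and filters, library weights, the replicate number as a block, Y-linked expression and leaving out each library. The procedure was tested on simulated counts, but no result of that test is given here. The members, the gene lists and the alternatives were chosen with earlier results of these data known. The genes named were Pla2g4e, the catalytic subunits and their counterparts, members with an unadjusted p-value under 0.05 or no overlap, and those highest and lowest in a class, the last by their mean level. Coding sequences came from GENCODE M21 and promoters from RefSeq (GRCm38.p6). Protein sequences were not used here. Library totals were 11792463 to 14594230 fragments without molecular identifiers, so their counting error leaves out duplication.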

Additional observations from a re-analysis of the deposited data

How the results depend on the processing

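In all 16 alternatives no member passed the adjusted threshold, 31 to 43 members were lower in KO, and the median log2 fold change of the members stayed between -0.15 and -0.06. The number of members with an unadjusted p-value under 0.05, 11 in limma-voom with all libraries, was 3 in DESeq2 (4.73% of all genes), 3 with library totals alone (7.80%), 4 with every gene of at least 1 fragment (7.06%), 2 within the 4 libraries with Y-linked transcripts, and 1 to 15 with 1 library left out, and the cause was not tested. It was 9 to 11 in the 5 remaining alternatives without a block, against 7.66% to 10.6% of all genes. Of the 15 without WT replicate 3, 10 were among the original 11. Members without overlap numbered 14 to 26 with 1 library left out, where fewer values have to separate and 20.4% to 30.9% of all genes did not overlap. Partner genes with an unadjusted p-value under 0.05, 5 in limma-voom with all libraries, numbered 3 in DESeq2 (4.73% of all genes). They numbered 3 with library totals (7.80%), 0 within the 4 libraries (3.77%), and 1 to 9 with 1 library left out. The 1 was found without WT replicate 2, against 4.13% of all genes, and the 9 without WT replicate 3, against 2239 of 18931 genes. Antigen presentation genes numbered 0 to 1 with 1 library left out.

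Over all genes, those that passed the adjusted threshold numbered 1 in DESeq2, 22 with a covariate for Y-linked expression, 3 within the 4 libraries and 0 to 1 with 1 library left out. Unadjusted p-values under 0.05 numbered 902 in DESeq2, 696 within the 4 libraries and 782 to 2239 with 1 library left out. Library totals alone moved the median of all genes to 0.03 and left 39 members lower. Small differences changed sign in some fits. Psma1, Psma3, Psmb2, Psmb4 and Psmc4 were lower in KO in 15 of 17 settings, Psmd1 in 16, Psmd5 and Psmg3 in 14 and Psmg4 in 12. Within the 4 libraries the log2 fold change of Psmb10 was 0.0034 and that of Psmb5 0.059. With 1 library left out it ranged from -0.17 to 0.012 for Psmb5 and from -0.29 to 0.15 for Psmb8.

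With the replicate number as a block, 6 members had an unadjusted p-value under 0.05, against 8.87% of all genes. The numbers were not taken to pair the samples, because not every correlation of their deviations was over 0.1 (0.532, 0.167 and 0.00870 over 12131 genes). The samples numbered 1 also shared the lack of Y-linked transcripts, and 2 of 6 libraries correlated best with their own number in the other group. With 3 libraries a group the standard errors were 0.07 to 0.11 for standard subunits, which had at least 261 fragments a library.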
